A study of Mus musculus with 20 samples.

Results

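Dead-domain rescue cultures were compared with control cultures in 10 of the 20 RNA sequencing libraries of the series, 5 in each group, paired by the number that the labels give each library. The members of the comparison are all genes with enough reads for a test, 15284 of the 24411 genes in the table. The cells were cultured mouse cerebellar granule neurons, the small glutamatergic neurons that receive mossy fibres and send parallel fibres to Purkinje cells. In the dead-rescue group the neurons received an shRNA against mouse Kdm6b together with an enzymatically dead human KDM6B enzymatic domain. For control cultures the labels name neither, and what virus they received is not stated. The other 10 libraries are neurons with the shRNA alone and neurons with the shRNA and an active domain. Viruses were added on day 1 in vitro and AraC, which kills dividing cells, on day 2, and RNA was taken on day 7. The mutation that makes the domain dead, its promoter and the strain, age and sex of the mice are not stated in the labels. Whether the 5 libraries of a group are separate cultures or animals is not stated either, and the p-values therefore cover the spread between these libraries, which may be technical. In such bulk RNA, fewer cells of a type and less RNA per cell cannot be told apart.

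Kdm6b removes methyl groups from lysine 27 of histone H3, a mark placed by the Polycomb complex PRC2 that keeps developmental genes silent. Granule neurons mature after birth by switching from genes of migration and axon growth to genes of synapses and mature ion channels. A dead domain keeps the protein fragment without its demethylase activity. Set beside control, it shows how the neurons differ from control when the shRNA and a domain without activity are both present.

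The 10 libraries held 14200745 to 21179300 estimated counts, with 16873 to 17073 genes detected in each. Libraries that share a number were alike in several respects. Rn45s, the precursor of ribosomal RNA, took 3.22 to 5.43% of the counts in numbers 1 to 3 and 0.206 to 0.457% in numbers 4 and 5. A first principal component with 45% of the variance set both libraries numbered 4 apart, and these carried the most Apoe, an astrocyte and microglia gene, at 4315 to 7627 CPM (counts scaled to the library total). In both numbered 5 the fibroblast collagen gene Col3a1 was highest, at 7333 to 9111 CPM. All 16 markers on the granule neuron list were detected and tested, which does not by itself identify the cells.

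Reads counted under Kdm6b did not separate the dead rescue from control. Control libraries 1 to 5 held 141, 171, 139, 81.2 and 187 CPM, and dead-rescue libraries 1 to 5 held 272, 250, 192, 54.9 and 109 CPM. The groups overlapped, with means of 144 ± 40.5 and 176 ± 92.2 CPM (SD, n = 5 each). The difference of 0.12 on the log2 scale was smaller than the spread between libraries (exact two-sided permutation test, p = 0.786, and exact sign-flip test of the 5 pairs, p = 0.75). With the number as a block, edgeR's quasi-likelihood test gave a log2 fold change of 0.10 ± 0.21 (SE; adjusted p = 0.958). Pairs 1, 2 and 3 were higher in the dead rescue and pairs 4 and 5 lower. The fitted difference was 0.66 in numbers 1 to 3 and -0.68 in numbers 4 and 5, and the difference between these effects was -1.33 ± 0.17 (SE; edgeR adjusted p = 0.0335). Kdm6b was the single gene of 15284 whose effect differed in that test, with 737 genes under an unadjusted p of 0.05. That test was added after the data were seen, and its split matches the Kdm6b pairs that rose and fell. Its p-value is therefore no independent support for the split. Counts under Kdm6b can include reads of the human domain, and the gene overlaps an antisense transcript, so the endogenous level is not measured here. In the direct comparison with the shRNA alone, Kdm6b was 0.98 higher on the log2 scale (95% interval 0.53 to 1.42; edgeR adjusted p = 1.00). For the X-linked paralogue Kdm6a the means were 48.1 ± 22.6 (control) and 45.6 ± 18.2 CPM (dead rescue; SD, n = 5 each), with a log2 fold change of 0.01 ± 0.23. Of the 14 tested genes of H3K27 demethylases and PRC2, none passed in edgeR, and the smallest unadjusted p was that of Rbbp7, a histone-binding PRC2 subunit (-0.18 ± 0.07, adjusted p = 0.366).

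**Figure D1:**
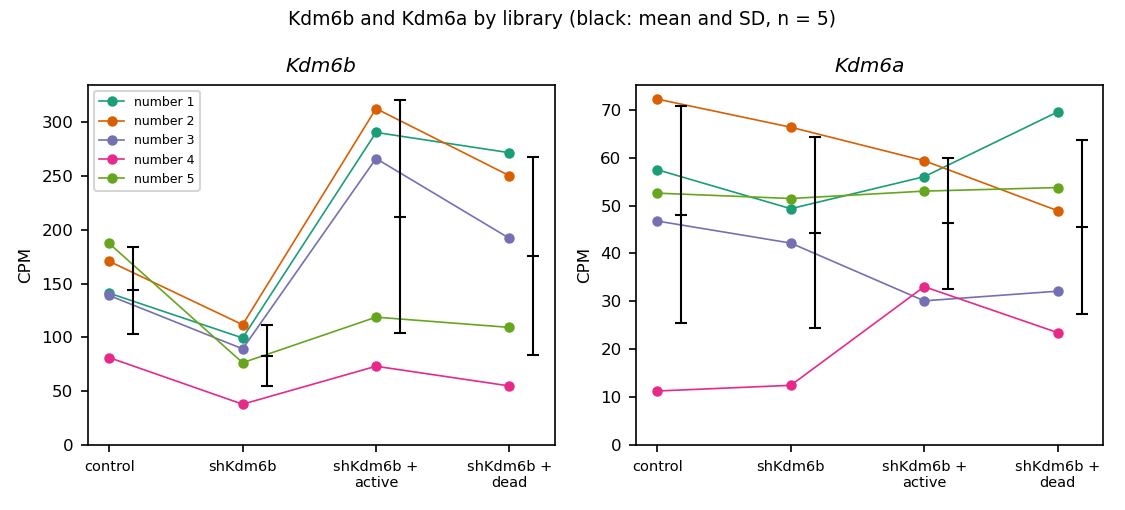
Level in CPM (y axis) of Kdm6b (left) and Kdm6a (right) in the 4 groups (x axis), with 1 line for each library number and black bars for the mean and SD (n = 5). Dead-rescue libraries numbered 1 to 3 lie above their controls for Kdm6b, at 192 to 272 CPM, and those numbered 4 and 5 lie below, at 54.9 and 109 CPM.

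A small set of genes differed between dead-rescue and control neurons. In the paired edgeR fit 88 genes rose, 0.576% of those tested, and 93 fell, 0.608%, together 181 genes or 1.18%. Of these, 45 changed at least 2-fold, 33 upward and 12 downward, and the median size of change among the 181 was 0.70 on the log2 scale. In 177 of the 181 genes all 5 pairs moved in the same direction, as did 12.1% of all tested genes, and in 29 the groups did not overlap, as in 0.51% of all tested genes. The median log2 fold change over all tested genes was 0.00. Without the block the edgeR test called 0 genes, with 276 under an unadjusted p of 0.05, and DESeq2 with the block called 457. The count also moved by more than 1.5 times when 1 library was left out: to 67, 101, 119 and 106 without control 1, 2, 4 and 5, and to 65, 67, 66 and 113 without dead rescue 2, 3, 4 and 5. With all libraries numbered 4 left out it was 378 (129 higher, 249 lower), and with all numbered 5 left out 42.

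**Figure D2:**
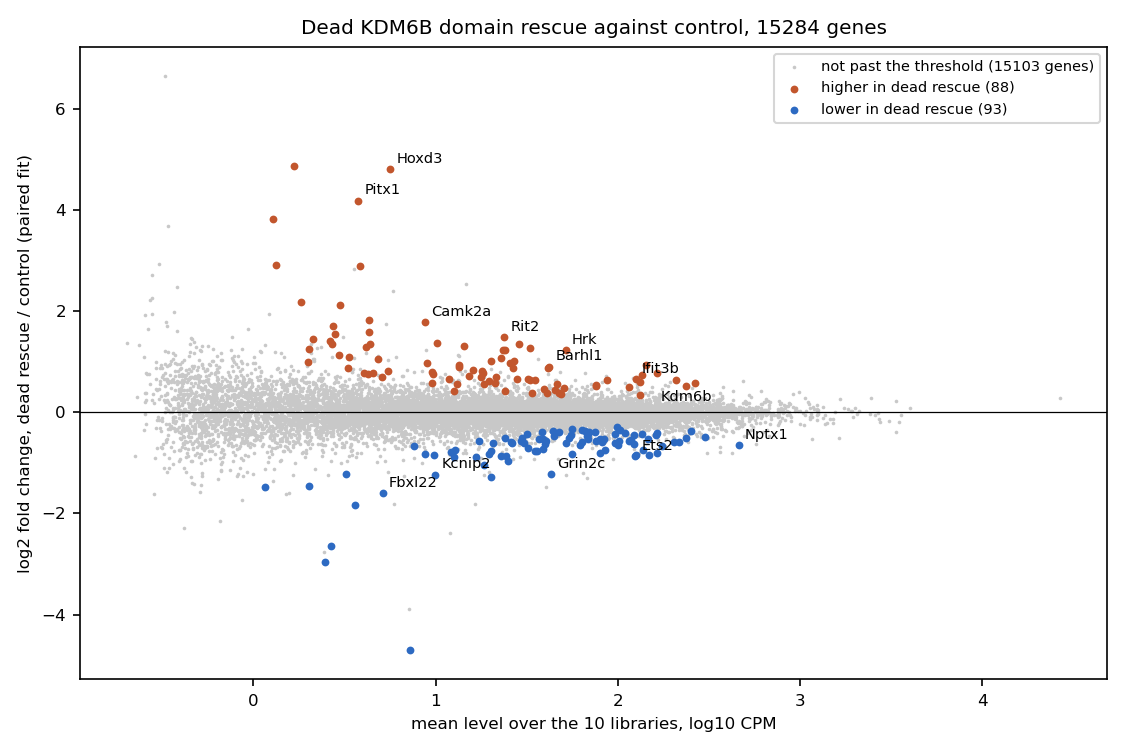
Log2 fold change of the dead rescue against control (y axis) by mean level over the 10 libraries in log10 CPM (x axis), 1 point per gene. Coloured points passed an adjusted p of 0.05, 88 above and 93 below 0, and the largest changes, such as Hoxd3 and Pitx1, lie at low levels.

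The homeobox genes Hoxd3 and Pitx1 rose from very low levels in control. Hoxd3, a transcription factor of body patterning, was counted 1, 2, 1, 19 and 10 times in control libraries 1 to 5 and 46, 91, 49, 574 and 132 times in dead-rescue libraries 1 to 5. Its level was 0.0524, 0.0999, 0.0590, 1.12 and 0.584 CPM in control and 2.27, 4.27, 2.87, 36.3 and 8.76 CPM in the dead rescue. Every dead-rescue library lay above every control library, and in both groups number 4 was highest. It rose by 4.81 ± 0.34 on the log2 scale (SE; edgeR adjusted p = 2.42e-06). Pitx1, which encodes a homeobox protein that patterns hindlimb and pituitary, held 0 to 1.42 CPM in control and 0.989, 1.93, 1.23, 26.2 and 5.38 CPM in dead-rescue libraries 1 to 5. The groups overlapped through control 4 alone, and the log2 fold change was 4.18 ± 0.43 (SE; edgeR adjusted p = 0.000170). Size estimates for such low controls depend on the small count that the fit adds. The Pitx1 gene spans 55825051 to 55836192 of chromosome 13, minus strand (GENCODE, GRCm38), and its exons overlap the predicted genes Gm28760 and Gm47071, so its reads may be shared with theirs. Hoxd3 and Pitx1 kept their calls without any 1 of the 10 libraries. Among Hox genes 7 of 39 in the table were tested, and Hoxd3 was the 1 that passed (14.3%, against 1.18% of all tested genes). The median of the 7 was 0.23. Of 99 developmental regulators in the table outside the Hox clusters, which Polycomb keeps silent in many tissues, 49 were tested. Pitx1 was the 1 that passed. That is 2.04%, against 1.18% of all tested genes, and the list had a median of 0.06 with 28 positive. Hoxd3 and Pitx1 had too few control reads to pass the filter on low counts by control alone. They were tested because of their levels in libraries with the shRNA, while silent members of both lists dropped out. The shares called in these lists therefore depend partly on the filter.

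The Hoxd3 gene spans 74711927 to 74748442 of chromosome 2, plus strand (GENCODE, GRCm38). Its exons overlap those of Hoxd4 and the predicted gene Gm28230 on the same strand, and those of Haglr and Hoxd3os1 on the other. The strand used in counting is not stated, so its reads cannot be assigned with certainty. Hoxd4 summed to 2 counts in control and 4 in the dead rescue. These low counts cannot show how reads that fit both genes were assigned. The Hoxd3 promoter is shown because the gene changed most of those at 5 CPM or more, and because Polycomb tends to sit on DNA rich in CpG. The window at chr2:74711743-74712042 (plus strand, RefSeq on GRCm38.p6, 250 bases before to 50 after the start) is printed with each CpG in capitals. It holds 20 CpG, against a median of 19 in the promoters of tested genes.
Hoxd3: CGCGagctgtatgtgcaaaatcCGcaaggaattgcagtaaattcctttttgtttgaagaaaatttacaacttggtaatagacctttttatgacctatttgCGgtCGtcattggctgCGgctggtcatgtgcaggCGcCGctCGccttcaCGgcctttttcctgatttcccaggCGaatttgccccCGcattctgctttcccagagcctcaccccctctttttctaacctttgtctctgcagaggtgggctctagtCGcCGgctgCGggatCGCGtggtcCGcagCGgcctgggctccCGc

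Camk2a, Rit2, Hrk, Pcp4, Miat and Caly were also among the largest rises. Camk2a encodes the alpha subunit of calcium/calmodulin-dependent kinase II, abundant at forebrain excitatory synapses. It held 3.67, 5.89, 4.66, 2.60 and 2.63 CPM in control libraries 1 to 5 and 13.2, 16.4, 15.7, 16.8 and 5.38 CPM in the dead rescue. Dead rescue 5 was the low library and fell inside the control range, while the other 4 lay above every control. The rise was 1.78 ± 0.21 on the log2 scale (SE; edgeR adjusted p = 0.000729). Rit2, a Ras-like small GTPase of neurons, rose from 12.8 ± 6.71 to 34.7 ± 15.3 CPM (SD, n = 5 each), by 1.48 ± 0.16. Hrk, a BH3-only protein that promotes apoptosis, held 32.0, 46.2, 40.4, 21.0 and 18.2 CPM in control libraries 1 to 5 and 66.9, 91.2, 84.2, 79.1 and 39.2 CPM in the dead rescue. Its libraries numbered 5 were lowest in both groups, and it rose by 1.22 ± 0.17 (edgeR adjusted p = 0.00293). Hrk is not on the list of p53 and apoptosis genes, of which 0 of 29 tested passed in edgeR. In that list 22 were positive and the median was 0.07. Pcp4, a calmodulin-binding peptide, rose by 1.22 ± 0.18, from 14.2 ± 7.45 to 32.8 ± 17.7 CPM. Exons of Pcp4 overlap those of Igsf5 on the same strand, which summed to 10 counts in control and 25 in the dead rescue. Miat, a nuclear long noncoding RNA, rose by 1.28 ± 0.19, and Caly, the endocytic vesicle protein calcyon, by 1.23 ± 0.19. Camk2a, Rit2, Hrk, Pcp4, Miat and Caly kept their calls without any 1 library (highest adjusted p = 0.0237, for Caly).

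Genes of axon guidance and adhesion rose in 5 of 79 tested cases and fell in none, 6.33% called against 1.18% of all tested genes. The median of the list was still -0.08, and 48 members were negative. Ntng2, the membrane-anchored adhesion protein netrin-G2, held 3.04, 5.04, 7.67, 4.67 and 6.25 CPM in control libraries 1 to 5 and 14.04, 9.30, 13.0, 30.4 and 9.03 CPM in the dead rescue. The groups did not overlap, and dead rescue 4 was highest. The log2 fold change was 1.36 ± 0.30 (SE; edgeR adjusted p = 0.0347). Islr2, a leucine-rich repeat protein of growing axons, rose by 1.34 ± 0.28. Its libraries spread widely, from 3.89 to 34.7 CPM in control and from 12.02 to 89.7 CPM in the dead rescue, with number 3 lowest and number 4 highest in both groups. Exons of Islr2 overlap those of Islr on the same strand, which summed to 9352 counts in control and 7889 in the dead rescue. Exons of Ntng2 overlap those of 6530402F18Rik on the same strand. Reads of Islr2 and Ntng2 may therefore be shared with these partners. Unc5d, of the family of netrin receptors, rose by 1.31 ± 0.28, from 8.63 ± 5.23 to 20.1 ± 7.18 CPM. Efnb3, a transmembrane ephrin, rose by 0.97 ± 0.15 (edgeR adjusted p = 0.00404), and Sema5b, a transmembrane semaphorin, by 0.63 ± 0.14 (edgeR adjusted p = 0.0347). Efnb3 was the 1 of the 5 that kept its call without any 1 library. Ntng2 lost it without control 1, 2 or 4 or dead rescue 1, 2, 3 or 4 (adjusted p up to 0.124), and Islr2 without control 1, 2 or 3 or dead rescue 2, 3 or 4 (up to 0.129). Unc5d kept it without control 2 or 3 only (up to 0.116), and Sema5b without control 3 or dead rescue 1 only (up to 0.138).

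**Figure D3:**
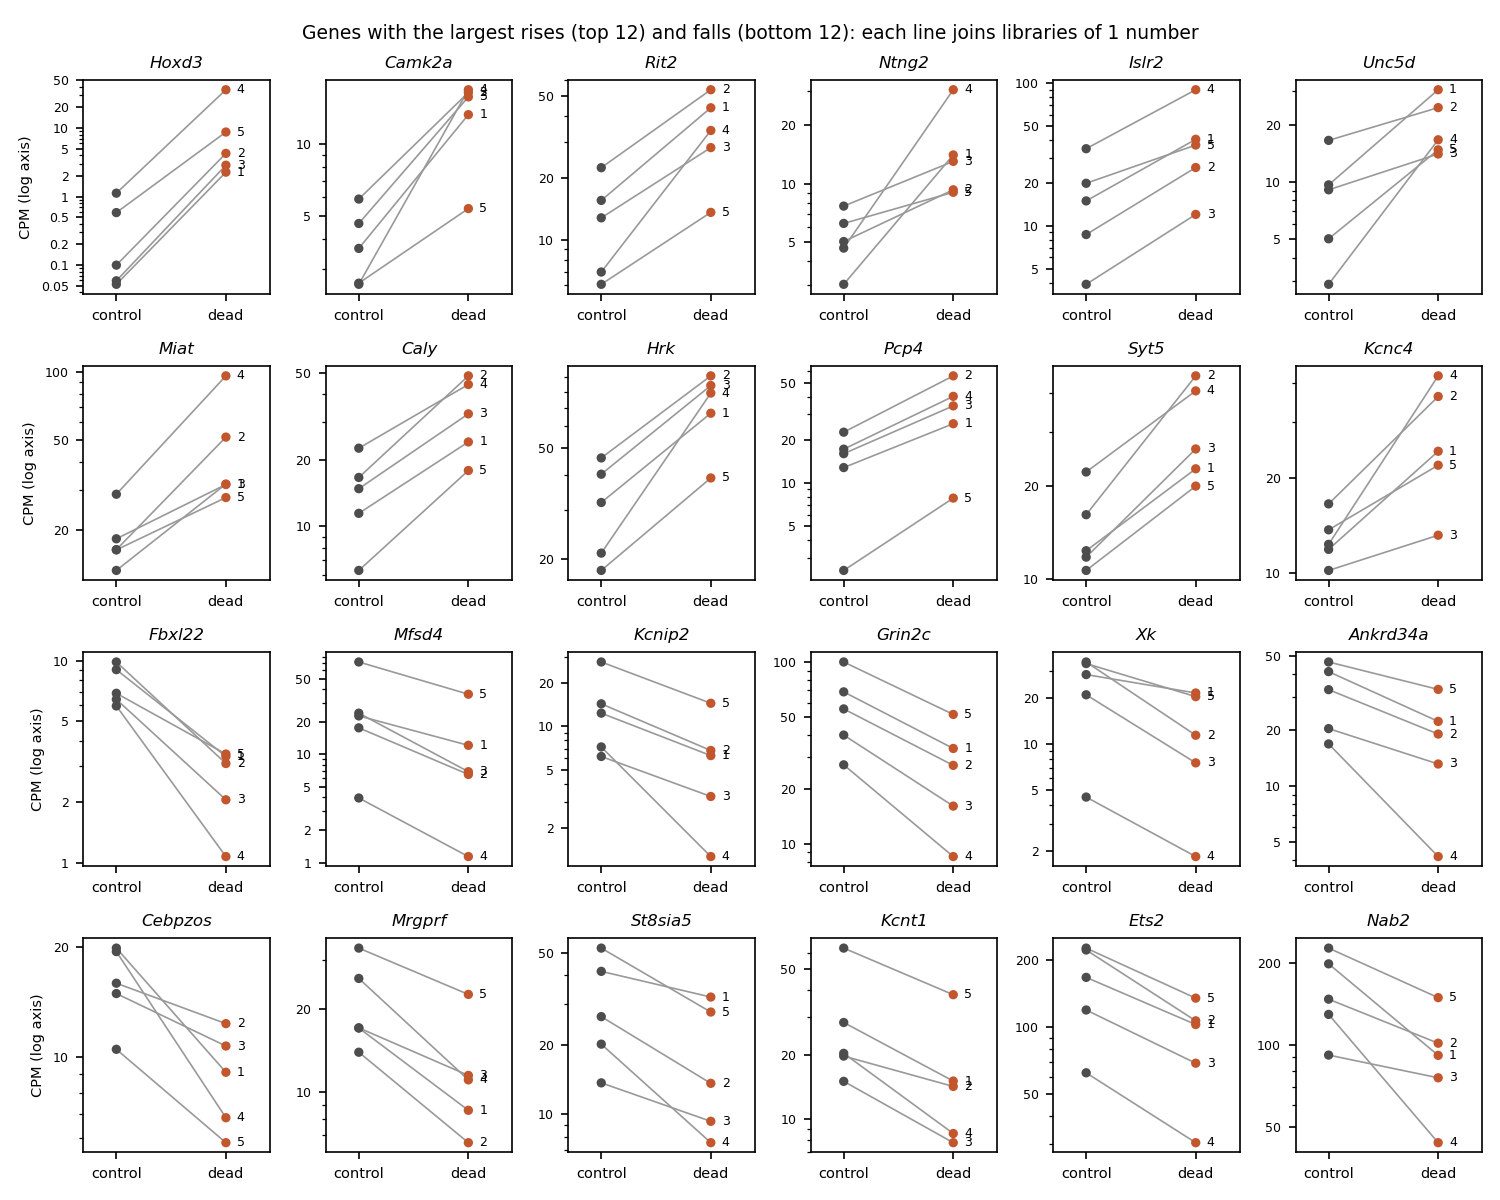
Level in CPM (log y axis) of the 12 largest rises and the 12 largest falls, in control (grey) and dead rescue (orange), with a line for each library number. All lines slope in the direction of the gene's fold change because the rule for named genes required it. Libraries numbered 4 lie at the edge of the range in many panels.

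Genes of the granule neuron precursor and its outgrowth rose where they passed. In the list of early granule neuron and progenitor genes 3 of 31 rose and none fell, 9.68% called against 1.18% of all tested genes. The median was 0.13 and 19 were positive. Barhl1, a homeobox gene of the granule neuron lineage, held 24.9, 35.05, 30.6, 27.3 and 26.1 CPM in control libraries 1 to 5 and 42.3, 61.9, 52.6, 82.3 and 36.8 CPM in the dead rescue. The groups did not overlap. It rose by 0.90 ± 0.13 (SE; edgeR adjusted p = 0.00270). Nnat, the membrane protein neuronatin, rose by 0.63 ± 0.11, and Tubb3, the neuronal beta tubulin of young axons, by 0.54 ± 0.10. Barhl1 and Nnat kept their calls without any 1 library, and Tubb3 lost its call without control 1, 2 or 4 or dead rescue 2, 3 or 4 (adjusted p up to 0.0625).

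Genes that mark late granule neuron maturation were mostly lower. Of 33 tested, 3 fell and 1 rose, 12.1% called against 1.18% of all tested genes. In the list 24 were negative and the median was -0.15. All 5 pairs were lower in 13 of the 33 members and higher in 3. Of all tested genes 12.1% had all 5 pairs in 1 direction. Grin2c encodes the NMDA receptor subunit that granule neurons gain as they mature. It spans 115249169 to 115267243 of chromosome 11, minus strand, and held 68.7, 55.4, 39.8, 27.3 and 100.3 CPM in control libraries 1 to 5 and 33.6, 27.1, 16.2, 8.54 and 51.6 CPM in the dead rescue. The groups overlapped. Each dead-rescue library lay below the control of its own number, which the rule for named genes required of the largest falls. Its log2 fold change was -1.22 ± 0.27 (SE; edgeR adjusted p = 0.0397). Etv1, an ETS factor of granule neuron maturation, fell by 0.81 (adjusted p = 0.0412), from 209 ± 120 to 119 ± 84.9 CPM. Wnt7a, a secreted Wnt of granule neurons that acts on mossy fibre terminals, fell by 0.64 (adjusted p = 0.0308), from 74.9 ± 18.7 to 48.9 ± 14.1 CPM. The 1 riser of the list was Pcp4, described above. Cbln3, a cerebellin secreted by granule neurons, was lower in all 5 pairs without passing (-0.49 ± 0.12, edgeR adjusted p = 0.0735). Cbln3 is named outside the rule for named genes, after its values were seen. The 3 falls rested on most libraries being present. Grin2c kept its call without control 3 only (adjusted p up to 0.143), Etv1 without dead rescue 1 only (up to 0.158), and Wnt7a without control 2 or 3 or dead rescue 1 only (up to 0.113).

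Ion channel genes moved in both directions. Of 56 tested voltage-gated channel genes 4 fell and 1 rose, 8.93% called against 1.18% of all tested genes. In the list 33 were negative and the median was -0.15. Kcnip2, a potassium channel-interacting protein that is an accessory subunit of A-type channels, held 12.3, 14.3, 6.19, 7.20 and 27.7 CPM in control libraries 1 to 5 and 6.28, 6.81, 3.28, 1.27 and 14.4 CPM in the dead rescue. The groups overlapped, and dead rescue 4 was lowest. The log2 fold change was -1.23 ± 0.22 (SE; edgeR adjusted p = 0.0117). Both Shaker beta subunits on the list fell, Kcnab1 by 0.76 and Kcnab2 by 0.48. Kcnc4, a fast-inactivating channel of the Kv3 family, rose from 12.9 ± 2.38 to 27.6 ± 11.6 CPM, by 1.02 ± 0.18 (edgeR adjusted p = 0.0117). Kcnt1, a sodium-activated potassium channel outside the list, fell by 0.87 (adjusted p = 0.00699) and kept its call without any 1 library. Kcnip2 lost its call without dead rescue 2 (0.0527) and Kcnc4 without control 1 (0.0542). Kcnab1 kept it without control 5 or dead rescue 1 only (up to 0.143), and Kcnab2 without control 2 or 3 only (up to 0.110).

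Background and inward rectifier potassium channel genes held 0 calls among 16 tested in edgeR, with 13 negative and a median of -0.19. Kcnk3, a background channel of the TASK family, had the smallest unadjusted p (-0.50 ± 0.12, adjusted p = 0.0633). GABA and glycine receptor genes held 0 calls among 18, with a median of -0.06. Glra2, a glycine receptor subunit of young neurons, came nearest at 0.58 ± 0.14 (edgeR adjusted p = 0.0543). Gabrd, whose product is the GABA-A receptor delta subunit of tonic inhibition, is named outside the rule for named genes. It had means of 67.1 ± 14.7 CPM (control) and 32.4 ± 18.7 CPM (dead rescue) without passing (-1.24 ± 0.40, edgeR adjusted p = 0.187).

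Presynaptic and postsynaptic genes likewise moved both ways. Among 55 presynaptic vesicle and release genes 2 rose and 1 fell (5.45% called, against 1.18% of all tested genes), with a median of -0.08. Syt5, a synaptotagmin of vesicles, held 12.3, 16.1, 11.7, 22.2 and 10.6 CPM in control libraries 1 to 5 and 22.7, 45.6, 26.4, 40.8 and 19.98 CPM in the dead rescue. Its groups met at the edge, since control 4 lay above dead rescue 5. The log2 fold change was 1.07 ± 0.13 (SE; edgeR adjusted p = 0.000937). Stx1a, the plasma membrane syntaxin of vesicle fusion, rose by 0.87 ± 0.15, from 18.4 ± 4.20 to 34.4 ± 13.3 CPM. Syt7, the calcium sensor of slow release, fell by 0.57 (edgeR adjusted p = 0.0162). Among 55 glutamate receptor and postsynaptic scaffold genes 2 rose and 4 fell (10.9% called, against 1.18% of all tested genes), with a median of 0.01. Camk2a and Neto1, an accessory protein of kainate receptors, were the 2 that rose. Neto1 held 0.642 to 1.18 CPM in control and 3.02, 3.76, 2.05, 13.0 and 3.25 CPM in dead-rescue libraries 1 to 5. These groups did not overlap, and the log2 fold change was 2.13 ± 0.43 (edgeR adjusted p = 0.0240). Beside Grin2c, 3 genes fell. Dlgap1, which encodes a postsynaptic scaffold protein, fell by 0.59 (adjusted p = 0.00929), and Cacng2, the AMPA receptor auxiliary subunit stargazin, by 0.56 (adjusted p = 0.0238). The fourth, Grin3a, an NMDA receptor subunit, fell by 0.74 (adjusted p = 0.0418) and is named outside the rule for named genes. Syt5, Stx1a and Dlgap1 kept their calls without any 1 library. Syt7 lost its call without control 1 or 5 or dead rescue 2, 3 or 4 (adjusted p up to 0.0783), Neto1 kept it without control 3 or dead rescue 1 or 5 only (up to 0.0922), and Cacng2 without control 4 or dead rescue 1 or 4 only (up to 0.0968).

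Of 36 activity-regulated genes 2 fell and 1 rose, 8.33% against 1.18% of all tested genes. Of the 36, 21 were negative and the median was -0.09. Egr1, an immediate-early zinc finger factor, held 116, 138, 118, 62.2 and 140 CPM in control libraries 1 to 5 and 95.7, 93.6, 94.7, 46.4 and 123 CPM in the dead rescue. It was lower in every pair, and number 4 was lowest in both groups. The fall was 0.35 on the log2 scale (edgeR adjusted p = 0.0422). Nab2, a corepressor that binds Egr factors and is itself outside the list, fell by 0.85 (adjusted p = 0.00871), from 159 ± 54.3 to 92.4 ± 38.7 CPM. Ets2, an ETS transcription factor on chromosome 16 from 95702075 to 95721051, plus strand, held 168, 223, 120, 62.5 and 227 CPM in control libraries 1 to 5 and 103, 107, 69.0, 30.3 and 135 CPM in the dead rescue. The groups overlapped, and it was lower in each pair, as the rule for named genes required of the largest falls. The log2 fold change was -0.86 ± 0.08 (SE; edgeR adjusted p = 8.86e-05). Nptx1, a secreted pentraxin that clusters AMPA receptors, fell by 0.65 (adjusted p = 0.0455), and Scg2, a secretogranin of dense-core vesicles, rose by 0.38 (adjusted p = 0.0451). Ets2 and Nab2 kept their calls without any 1 library. Scg2 lost its call without any 1 library (adjusted p up to 0.144), Egr1 kept it without control 5 only (up to 0.147), and Nptx1 without dead rescue 4 only (up to 0.165).

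Several of the largest falls belong to none of these groups. Fbxl22, an F-box protein best known from cardiac muscle, held 9.01, 9.84, 6.43, 5.96 and 6.89 CPM in control libraries 1 to 5 and 3.36, 3.10, 2.05, 1.08 and 3.45 CPM in the dead rescue. The groups did not overlap, and the log2 fold change was -1.59 ± 0.26 (SE; edgeR adjusted p = 0.00597). Mfsd4, of the major facilitator family of transporters, fell by 1.29 (adjusted p = 0.0361), with libraries numbered 5 highest and numbered 4 lowest in both groups. Xk, the membrane partner of the Kell blood group protein, fell by 1.04 (adjusted p = 0.00782), and Ankrd34a, an ankyrin repeat protein, by 0.97 (adjusted p = 0.0238). Cebpzos, which lies opposite Cebpz, fell by 0.88 (adjusted p = 0.0243), Mrgprf, an orphan receptor of the Mas-related family, by 0.88 (adjusted p = 0.0259), and St8sia5, a sialyltransferase of ganglioside synthesis, by 0.87 (adjusted p = 0.0493). Exons of Fbxl22 and Cebpzos lie opposite those of Herc1 and Cebpz, and those of Nab2 opposite Stat6. Without a stated counting strand, reads of such partners cannot be told apart. Fbxl22 and Xk kept their calls without any 1 library. Ankrd34a lost its call without control 1 or dead rescue 2, 3 or 4 (adjusted p up to 0.0970). Mfsd4 kept it without control 4 or dead rescue 1 or 5 only (up to 0.140), Cebpzos without control 2 or 3 or dead rescue 2 only (up to 0.110), Mrgprf without control 3 or 5 or dead rescue 1 only (up to 0.111), and St8sia5 without control 3 only (up to 0.157).

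Interferon-stimulated genes stood higher in the dead rescue almost throughout the list, by small amounts. Of 75 tested, 71 had a positive log2 fold change, and the median was 0.32 against 0.00 over all tested genes. Of the 75, 3 rose and none fell, 4% called against 1.18% of all tested genes. All 5 pairs were higher in 26 of the 75 members and lower in none, where 12.1% of all tested genes had all 5 pairs in 1 direction. Interferon induces these genes through the factor ISGF3, which binds a repeat of GAAA spaced by a pair of bases. The members that passed were Ifit3b and Ifit3, antiviral proteins of the IFIT family, and Ifi47, an interferon-induced GTPase. Their promoters are shown for the first 2, which lie side by side on chromosome 19, with both matches to that repeat in capitals, read on either strand. The windows are chr19:34583279-34583578 for Ifit3 and chr19:34607707-34608006 for Ifit3b, both on the plus strand (RefSeq on GRCm38.p6, 250 bases before to 50 after the start).
Ifit3: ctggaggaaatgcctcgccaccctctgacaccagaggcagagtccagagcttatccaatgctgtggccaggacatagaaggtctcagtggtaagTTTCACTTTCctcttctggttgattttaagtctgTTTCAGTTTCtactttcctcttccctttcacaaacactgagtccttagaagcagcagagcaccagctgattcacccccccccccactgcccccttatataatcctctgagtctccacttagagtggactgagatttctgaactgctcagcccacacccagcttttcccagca
Ifit3b: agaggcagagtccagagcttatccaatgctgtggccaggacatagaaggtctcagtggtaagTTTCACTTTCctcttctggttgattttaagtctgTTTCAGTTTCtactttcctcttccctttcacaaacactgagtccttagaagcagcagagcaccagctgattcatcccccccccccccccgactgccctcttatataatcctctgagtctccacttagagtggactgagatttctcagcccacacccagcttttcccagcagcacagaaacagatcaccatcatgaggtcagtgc

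Both windows hold the same pair of matches, first at -156 in Ifit3 and at -188 in Ifit3b, so the windows are offset. Aligned end to end, 259 bases were identical over 340 columns (76.2%). These columns include gaps, so the share understates how alike the aligned bases are. The repeat (GAAA, any 2 bases, GAAA), on either strand and counted once per promoter, occurred in 3.44% of 32851 RefSeq promoters and in 31 of 70 promoters (44.3%) of the 57 list genes that matched the table. Among promoters of tested genes the repeat occurred in 3.07% of 14658. It occurred in 4 of 93 promoters (4.30%) of genes that rose and 2 of 86 (2.33%) of those that fell, too few to compare. A match describes the letters in a window and is not a binding site. Ifit3b held 77.6, 52.0, 91.5, 165 and 70.5 CPM in control libraries 1 to 5 and 85.5, 69.6, 189, 344 and 110 CPM in the dead rescue. The groups overlapped, and each dead-rescue library lay above the control of its number. The log2 fold change was 0.66 ± 0.13 (SE; edgeR adjusted p = 0.0238). Ifit3 held 107, 83.0, 155, 101 and 70.3 CPM in control and 122, 112, 289, 191 and 100.5 CPM in the dead rescue, with number 3 highest in both groups, and rose by 0.59 ± 0.12 (edgeR adjusted p = 0.0274). Since the genes share sequence, reads that fit both could have been split between them. Ifi47 rose by 0.38 ± 0.08 (edgeR adjusted p = 0.0383). Ifit3b and Ifit3 kept their calls without control 2 or dead rescue 1 only (adjusted p up to 0.0908 and 0.108), and Ifi47 without dead rescue 1 only (up to 0.149).

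Genes of MHC class I antigen presentation, which interferon also induces, were all positive, 20 of 20, with a median of 0.36, and 0 passed in edgeR. H2-T22, a nonclassical class I gene, had the smallest unadjusted p, with 23.5 ± 14.1 CPM in control and 41.5 ± 33.5 CPM in the dead rescue (0.67 ± 0.17, adjusted p = 0.0635). B2m, the light chain of class I molecules, stood at 0.40 ± 0.13 (adjusted p = 0.190), and Tap1, the peptide transporter, at 0.43 ± 0.12 (adjusted p = 0.110). B2m and Tap1 are named outside the rule for named genes. NF-kB and inflammatory genes held 0 calls among 34, with a median of 0.07 and Sod2, the mitochondrial superoxide dismutase, the smallest in unadjusted p (0.16 ± 0.09, edgeR adjusted p = 0.558). Microglia express many interferon and class I genes. Of their 18 tested markers 17 were negative, none passed in edgeR, none was at 0, the median was -0.26, and 1 marker was lower in all 5 pairs. The markers summed to 1710, 953, 477, 2699 and 842 CPM in control libraries 1 to 5 and 1539, 1066, 532, 749 and 1122 CPM in the dead rescue. The sum was thus higher in pairs 2, 3 and 5 and lower in pairs 1 and 4, with the widest gap in pair 4. The part of these cells in the interferon and class I values was not tested.

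**Figure D4:**
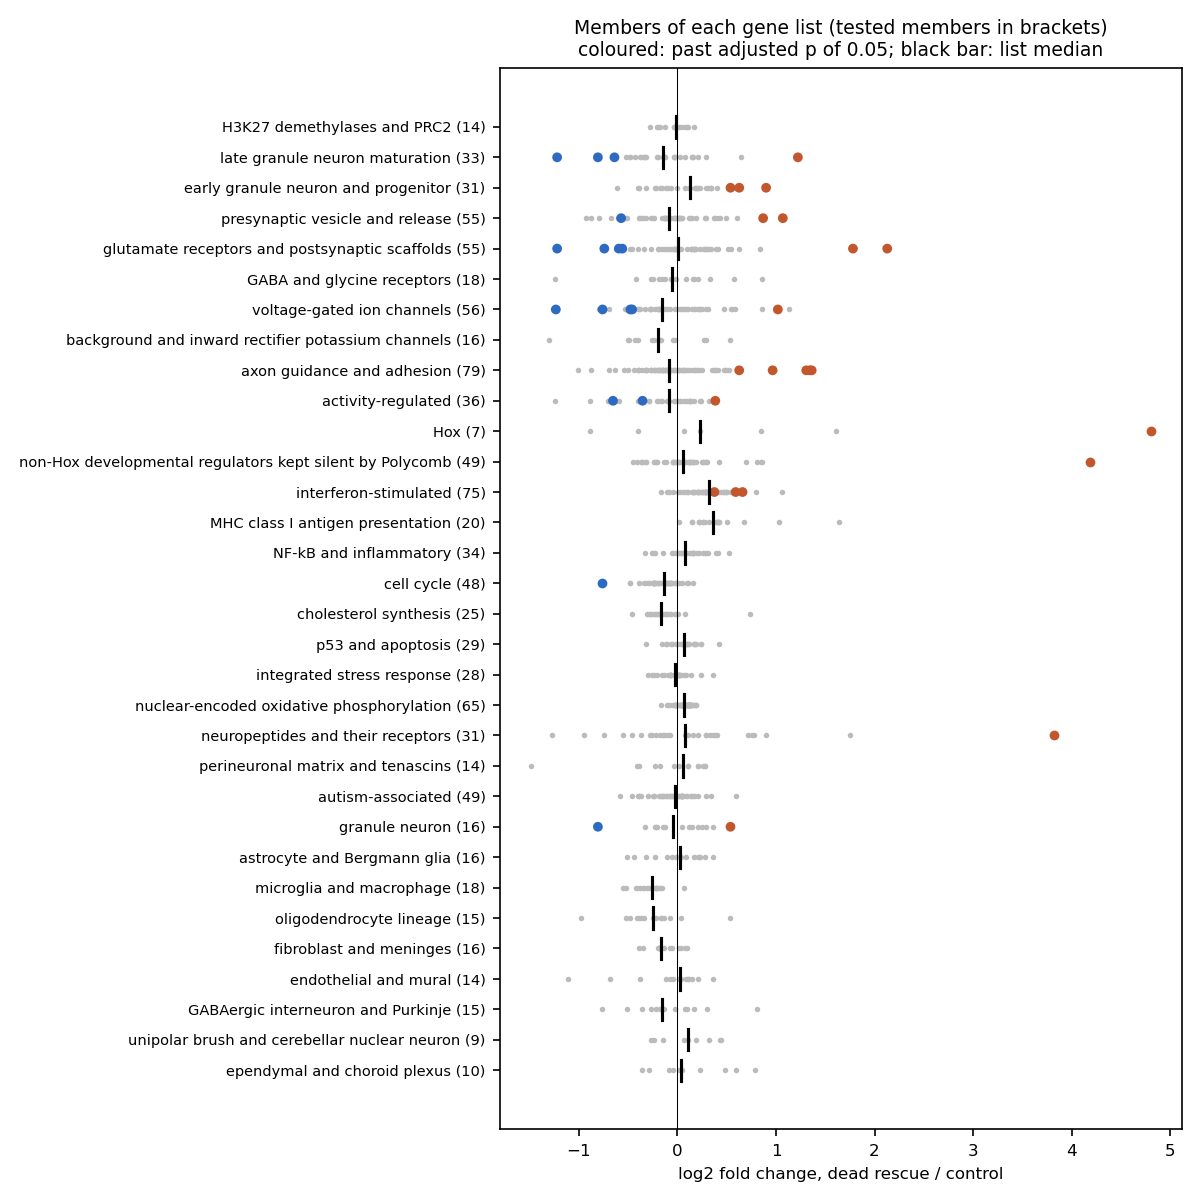
Log2 fold change of the dead rescue against control (x axis) for each tested member of each list (y axis, number tested in brackets), with coloured points for genes past an adjusted p of 0.05 and a black bar for the list median. The interferon and MHC class I lists sit to the right of 0, with medians of 0.32 and 0.36, and the voltage-gated channel list sits to the left, with a median of -0.15.

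Of 48 cell cycle genes 43 were negative, with a median of -0.14. Rrm2, a subunit of ribonucleotide reductase, was the 1 member that passed (2.08%, against 1.18% of all tested genes). It held 27.5, 21.8, 71.7, 51.0 and 55.5 CPM in control libraries 1 to 5 and 18.7, 14.6, 45.0, 17.3 and 39.1 CPM in the dead rescue, lower in each pair, and fell by 0.76 (edgeR adjusted p = 0.0177). The call ended without control 2 or dead rescue 3 (adjusted p up to 0.0670). Among 25 cholesterol synthesis genes 22 were negative and 0 passed in edgeR, with a median of -0.17. Insig1, which retains the sterol sensor in the endoplasmic reticulum, came nearest (-0.28 ± 0.07, adjusted p = 0.0649). Nuclear-encoded oxidative phosphorylation genes were positive in 52 of 65 cases by a median of 0.07, with 0 calls in edgeR and the smallest unadjusted p for Ndufa10, a complex I subunit (0.18 ± 0.08, adjusted p = 0.405). The integrated stress response list held 0 calls among 28 in edgeR, with a median of -0.02 and Ero1l, an oxidase of the endoplasmic reticulum, smallest in unadjusted p (-0.30 ± 0.08, adjusted p = 0.0895).

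Of 31 neuropeptide and receptor genes Nts, which encodes neurotensin, was the 1 that rose (3.23% called, against 1.18% of all tested genes). Nts too passed the filter on low counts through libraries with the shRNA, so this share depends partly on the filter. The median of the list was 0.07. Nts held at most 0.413 CPM in any control and 0.643, 0.423, 0.410, 10.8 and 0.0664 CPM in dead-rescue libraries 1 to 5. Dead rescue 4 carried nearly all of its reads, and the pair numbered 5 was lower, so the fitted 3.82 ± 0.73 (SE; edgeR adjusted p = 0.0163) rests on low counts. The call ended without control 1 or 4 or dead rescue 4 (adjusted p up to 0.139). Of 14 perineuronal matrix and tenascin genes 0 passed in edgeR, with a median of 0.06. Tnr, the matrix protein tenascin-R, held 62.9, 86.9, 49.1, 1.36 and 95.5 CPM in control libraries 1 to 5 and 39.1, 15.5, 9.79, 0.949 and 43.7 CPM in the dead rescue, lower in each pair without passing (-1.48 ± 0.37, adjusted p = 0.0695). Autism-associated genes held 0 calls among 49 in edgeR, with a median of -0.03.

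Among the 16 granule neuron markers Tubb3 rose, Etv1 fell and 14 did not pass, 12.5% called against 1.18% of all tested genes. Their median was -0.04, and the markers summed to 3430 to 10201 CPM in control and 4091 to 8582 CPM in the dead rescue. No marker of another cell type passed in edgeR. The median was 0.03 over 16 astrocyte and Bergmann glia markers (2821 to 17705 CPM summed in control, 3132 to 14054 in the dead rescue; smallest adjusted p = 0.123, Aldh1l1) and -0.25 over 15 oligodendrocyte lineage markers (128 to 1145 and 153 to 1091 CPM; 0.208, Cspg4). It was -0.17 over 16 fibroblast and meningeal markers (6980.5 to 35253 and 6444 to 29402 CPM; 0.328, Fn1) and 0.03 over 14 endothelial and mural markers (373 to 828 and 308 to 787 CPM; 0.418, Acta2). For GABAergic interneuron and Purkinje markers it was -0.15 over 15 (302 to 489 and 269 to 458 CPM). Pax2, a factor of cerebellar interneuron precursors, was highest among these at 0.81 ± 0.22 (edgeR adjusted p = 0.106). For 9 unipolar brush and cerebellar nuclear neuron markers the median was 0.11 (155 to 288 and 172 to 275 CPM; 0.249, Slc17a6), and for 10 ependymal and choroid plexus markers 0.03 (396 to 1923 and 425 to 1882 CPM; 0.253, Rsph1). The part of these cells in the gene changes above was not tested.

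How the dead rescue differs from control can be set beside the other groups, which share the same 5 control libraries. Against control, Hoxd3 stood at 5.60 ± 0.34 with the shRNA alone, 4.82 with the active domain and 4.81 ± 0.34 with the dead domain (log2 fold changes). Camk2a stood at 2.25, 1.90 and 1.78, Ets2 at -1.13, -0.86 and -0.86, Grin2c at -1.47, -0.57 and -1.22, and Ifit3b at 0.65, 0.20 and 0.66, in the same order. Tested directly, the dead rescue differed from the shRNA alone in 0 genes in edgeR (0%, with 214 under an unadjusted p of 0.05, and 0 in DESeq2). The direct difference was -0.79 for Hoxd3 (95% interval -1.29 to -0.29), -1.17 for Pitx1 (-1.79 to -0.54), -0.46 for Camk2a (-0.89 to -0.04) and 0.27 for Ets2 (0.10 to 0.45), none past the adjusted threshold, and 0.01 for Ifit3b (-0.27 to 0.29). These intervals do not show that the groups are alike.

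Against the active domain, 1 gene passed in edgeR, 0.00654% of those tested, with 415 under an unadjusted p of 0.05 and 3 genes called by DESeq2. It was Kcnip1, an A-type channel subunit, at 12.9, 8.42, 4.39, 4.10 and 0.576 CPM in active-rescue libraries 1 to 5 and 2.52, 2.77, 1.41, 1.46 and 0.398 CPM in the dead rescue, a log2 difference of -1.67 ± 0.24 (adjusted p = 0.0411). In control it held 0.234 to 1.73 CPM, and the dead rescue did not differ from control past the threshold (0.55 ± 0.26, adjusted p = 0.470). Its call ended without active rescue 1, 2 or 3 or any 1 of the 5 dead-rescue libraries, with 0 genes called. None of the 181 genes passed this direct test. The dead rescue was lower than the active for Islr2, by 0.93 on the log2 scale (95% interval -1.50 to -0.36), and for Grin2c, by 0.65 (-1.24 to -0.07), and higher for Ifit3b, by 0.46 (0.18 to 0.75). For Hoxd3 (-0.01, -0.52 to 0.49) and Ets2 (0.00, -0.16 to 0.16) the interval spans 0. Over the interferon list the median of dead against active was 0.26, with 69 of 75 positive and 0 called, and over MHC class I it was 0.29, with 20 of 20 positive and 0 called. Over all tested genes the median was -0.01 and 45.5% were positive. Other lists were also one-sided against the active domain. Cell cycle genes were positive in 45 of 48 cases (median 0.19) and oxidative phosphorylation genes in 61 of 65 (0.07). Axon guidance and adhesion genes were negative in 71 of 79 cases (-0.14). Against the shRNA alone the interferon list had a median of 0.00, with 38 positive and 37 negative.

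**Figure D5:**
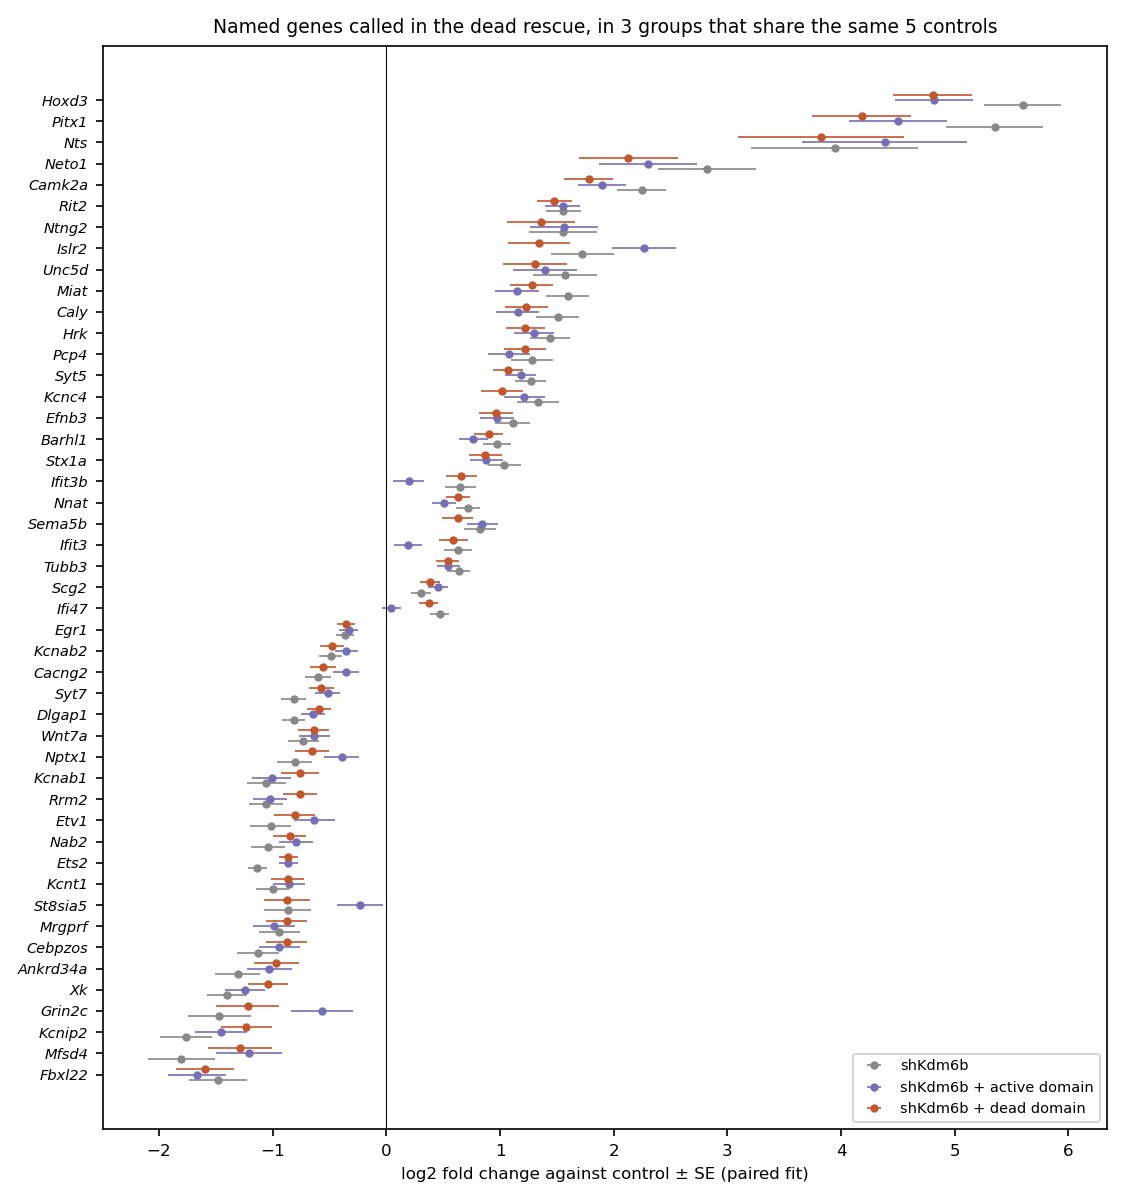
Log2 fold change against control ± SE (x axis) of genes named in the text and called in the dead rescue (y axis), for the shRNA alone (grey), with the active domain (purple) and with the dead domain (orange). The 3 groups share the same 5 controls; Hoxd3 lies at 5.60, 4.82 and 4.81, and Ifit3b at 0.65, 0.20 and 0.66.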

How the data were processed

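RNA of 20 cerebellar granule neuron libraries in 4 groups was sequenced, and 10 libraries (dead rescue and control) form the comparison. The authors deposited estimated counts per gene, not normalized and merged from salmon per the file name, on mm10 per the submitters' processing notes. For the salmon version, annotation and counting strand, nothing is given in the sources used here. Of the values in a library 7.03 to 11.2% were not whole, so counts were rounded. Totals were 14200745 to 21179300, and their number limits the precision of low genes. Any 2 libraries of a group differed by far more than counting error (chi-square over degrees of freedom at least 29.1), and none was merged.

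In edgeR 4.0.16 (R 4.3.3), filterByExpr kept 15284 of 24411 genes, TMM scaled libraries, and the quasi-likelihood test (robust, two-sided) compared groups in 1 fit over all 20 libraries with the library number as a block, and p-values adjusted by Benjamini-Hochberg at 0.05. Pairing by number is part of the comparison as posed, and the numbers paired the samples by the limit set. Deviations from the group mean correlated across genes at Pearson r = 0.515 to 0.774 (median 0.633, limit 0.1) in the 5 same-numbered dead-rescue and control pairs. In the 20 other pairs the median was -0.205 and the highest value 0.503, close to the lowest same-numbered one. Taking deviations from the group mean by itself lowers the values of these other pairs. Each of 20 libraries correlated best with one of its number. What a number marks is not in the labels. CPM use TMM-scaled totals, and single values used exact permutation and sign-flip tests with a prior count of 1.

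Named genes were the 12 largest rises and 12 largest falls that passed, at 5 CPM or more on average and in 1 direction in all 5 pairs, without predicted or clone-named genes, plus Kdm6b, Kdm6a, library markers and up to 5 called members of each gene list, or the member with the smallest p where none was called. Grin3a, Hoxd4, Gabrd, Cbln3, B2m, Tap1 and Kcnip1 were named after their values were seen, and some genes that the rule names are not reported here. The comparison and the lists were chosen with earlier results of these data known. Alternatives were no block, DESeq2 1.42.0 and its size factors, no filter, only the 2 groups, library numbers left out, and each library left out. Promoters are from RefSeq (GRCm38.p6) and gene positions from GENCODE (GRCm38).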

Additional observations from a re-analysis of the deposited data

Results flagged for a closer look

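The change in Kdm6b differed between library numbers: the dead-rescue effect in numbers 4 and 5 minus that in numbers 1 to 3 was -1.33 on the log2 scale (edgeR adjusted p = 0.0335), with 3 of 3 pairs higher and 2 of 2 pairs lower. The test was added after the data were seen, with a split that matches these directions. Libraries numbered 1 to 3 also held the most Rn45s, and the part of this in the difference was not tested.

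In 100 group values of 50 named genes, 8 groups of 5 libraries held 1 library far from the other 4 on the log2 scale (Dixon's test; chance gives about 1 in 20 groups). Of these, 6 concern libraries numbered 4, which stood apart on the first principal component. Control 4 was low for Xk (4.49 CPM), Kdm6a (11.3 CPM), Etv1 (28.3 CPM), Dlgap1 (80.1 CPM) and Egr1 (62.2 CPM), and dead rescue 4 was low for Egr1 (46.4 CPM). Dead rescue 5 was low for Camk2a (5.38 CPM, against 13.2 to 16.8 CPM in the others), and control 5 was low for Pcp4 (2.45 CPM, against 12.8 to 22.6 CPM). The calls of Camk2a, Pcp4, Xk and Dlgap1 held without any 1 of the 10 libraries, while that of Etv1 was lost without control 4 and that of Egr1 without control 4 or dead rescue 4 (edgeR adjusted p up to 0.158 and 0.147 over all libraries left out).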

How the results depend on the processing

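The count of 181 genes rests on the replicate block: no replicate block gave 0. With the block it was 0 with libraries numbered 4 and 5 alone (8 of 20 libraries), 45 with only the 2 groups in the fit (42 of them among the 181), 457 with DESeq2 (all 181 among them), 378 without the 4 libraries numbered 4, 42 without those numbered 5, and 24 for the effect in numbers 1 to 3 in a fit with an interaction, chosen after seeing the data. It was 179 with DESeq2's size factors, 157 without a filter and 143 with numbers 1 to 3 alone. Leaving out 1 library gave 65 to 179. The biological coefficient of variation was 0.179 with the block and 0.392 without. Depth limits the lowest genes: Hoxd3 had 1 to 19 counts in a control library.

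Of 48 called genes named by rule, 0 changed direction under any alternative. All 48 held their call with DESeq2 and its size factors, 43 without a filter and without numbers 4, 27 with numbers 1 to 3 alone, 20 of 47 with only the 2 groups, 17 without numbers 5, and 0 without the block or with numbers 4 and 5 alone. With any 1 library left out, 19 held throughout.

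Dead rescue against shKdm6b gave 1 gene with numbers 1 to 3 alone and 0 otherwise. Dead against active rescue gave 0 genes without the block, with only the 2 groups, without numbers 4, without numbers 5 and with numbers 4 and 5 alone, 3 with DESeq2, 9 with numbers 1 to 3 alone, and 0 to 2 with 1 library left out. The Kdm6b log2 fold change turned to -0.69 with numbers 4 and 5 alone, and leaving out 1 library gave -0.053 to 0.32 in the fit and -0.088 to 0.49 for the level. Kdm6a turned to -0.077 without the block, -0.20 without numbers 4 and -0.25 with numbers 1 to 3 alone (-0.19 to 0.13 with 1 library left out). The cause of these shifts was not tested. The smallest exact p is 0.00794 for 5 against 5 libraries and 0.0625 for 5 pairs.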

Other observations

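Genes outside the rule for named genes, are given here as single values. They were chosen after their values were seen and support no pattern described above. Gap43, a growth cone protein of extending axons, rose by 0.74 ± 0.11 on the log2 scale (SE; edgeR adjusted p = 0.00404), from 119, 126, 91.1, 107 and 65.9 CPM in control libraries 1 to 5 to 175, 207, 150, 203 and 111 CPM in the dead rescue. Dbn1, the actin-binding protein drebrin, rose by 0.59 ± 0.11 (adjusted p = 0.0177), and Insm1, a zinc finger factor of neuronal precursors, by 1.01 ± 0.17 (adjusted p = 0.00782). Tuba4a, an alpha tubulin of mature neurons, fell by 0.84 (adjusted p = 0.00404), and Prmt8, a neuronal arginine methyltransferase, by 0.83 (adjusted p = 0.0415).

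Zan, which encodes the sperm membrane protein zonadhesin, held 20.9, 26.9 and 22.2 CPM in control libraries 1 to 3 and 0.177 and 0.409 CPM in controls 4 and 5, while the 5 dead-rescue libraries held 0.0633 to 0.704 CPM. The high values were confined to 3 of the 5 control libraries among the 10 compared, and the fitted log2 fold change was -4.71 ± 0.81 (edgeR adjusted p = 0.00849). At the other end Tmem211 held 0 to 0.472 CPM in control and 0.346 to 10.8 CPM in the dead rescue, with a fitted log2 fold change of 4.86 ± 0.63 (edgeR adjusted p = 0.00131).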
